A study of Mus musculus with 12 samples.

Results

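The 34 genes described here belong to the interferon and nucleic acid sensing system of the cell. They were taken from a list of symbols and looked up in a table of 43346 gene IDs from mouse embryonic stem cells. All 34 were found, and all 34 passed the filter on low counts that left 17148 genes for testing. The table holds 12 RNA-seq libraries, 3 for each of 4 groups. B6 is the inbred strain C57BL/6J and D2 is the inbred strain DBA/2J. B6-13D2 is the congenic strain B6.D2-(rs30079041-rs51756099)/Bakr, in which a segment of D2 origin, on chromosome 13 by the name of the group, lies on the B6 background. D2-13B6 is the reciprocal congenic strain D2.B6-(rs29224292-rs13469455)/Bakr, with a B6 segment on the D2 background. The labels name different markers at both ends of these segments, so they may not be the same interval. Cells of every group grew in medium with 15% serum, the cytokine LIF, 1 µM PD0325901 (an inhibitor of the kinase MEK) and 3 µM CHIR99021 (an inhibitor of the kinase GSK3). The labels name no interferon, infection or added nucleic acid in any group, so all values are taken as basal levels, which was not tested. The protocol describes 3 independent cultures of the same line for each strain, whereas the sample titles call the 3 libraries technical replicates. Strain and cell line cannot be told apart, and every SD, SE and p-value measures only the spread between these libraries, which is technical if the titles are right. None of the 34 genes lies on chromosome 13, and they are spread over 15 chromosomes, so each was measured away from the exchanged segment.

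Cells recognise foreign or misplaced RNA and DNA through sensor proteins. RIG-I (Ddx58) and MDA5 (Ifih1) bind double-stranded RNA and signal through the mitochondrial adaptor Mavs, and the adaptor STING (Tmem173) acts downstream of DNA sensing. These signals activate the factors Irf3 and Irf7, which switch on type I interferon genes; secreted interferon binds the receptor chains Ifnar1 and Ifnar2, and a complex that holds Stat2 and Irf9 then induces interferon-stimulated genes through a DNA element called the interferon-stimulated response element. Pluripotent stem cells are known for a weak interferon response, and for keeping some of these genes at a basal level.

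Libraries held 22184196 to 36411799 expected counts. Levels are given as CPM, counts rescaled to a common library total with TMM factors, and a gene is said to be called where edgeR's quasi-likelihood test gave a Benjamini-Hochberg adjusted p under 0.05 over all genes tested; every adjusted p below is of this kind. The 9 pluripotency markers examined, Pou5f1, Sox2 and Nanog among them, were present in every library, with summed levels from 3210 CPM (D2) to 5357 CPM (B6-13D2). Fibroblast markers were abundant as well, although the protocol names no feeder cells: 10 genes, among them Col1a1, Col3a1 and Postn, summed to 9553 to 10353 CPM in B6, 14411 to 17220 CPM in D2, 3146 to 3235 CPM in B6-13D2 and 7854 to 8177 CPM in D2-13B6, and none was at 0 in any library. The order of the groups in this sum was D2, B6, D2-13B6 and B6-13D2. Of 6 leukocyte markers, all above 3 counts in every library, 5 were highest in D2-13B6: Csf1r, for example, averaged 2.52 CPM in B6, 6.42 CPM in D2, 2.79 CPM in B6-13D2 and 10.4 CPM in D2-13B6. Their sum, of which Laptm5 was the largest part, was 188 to 205 CPM in B6, 133 to 151 CPM in D2, 206 to 214 CPM in B6-13D2 and 144 to 147 CPM in D2-13B6. Fewer cells of a type and less RNA per cell cannot be told apart in such bulk libraries. In the table, congenic columns begin with a prefix that parental columns do not have; if it records a batch, that batch and the congenic state cannot be told apart. The labels give B6 replicate 3 another line name (B6 4-1) than B6 replicates 1 and 2 (B6 5-1). The D2 titles name another line (D2 2-9) than the cell line field (D2 5-5), and the series' design text ends the D2-13B6 segment at rs51756099. The molecule field of every sample says genomic DNA, whereas the titles and the protocol describe RNA-seq.

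**Figure D1:**
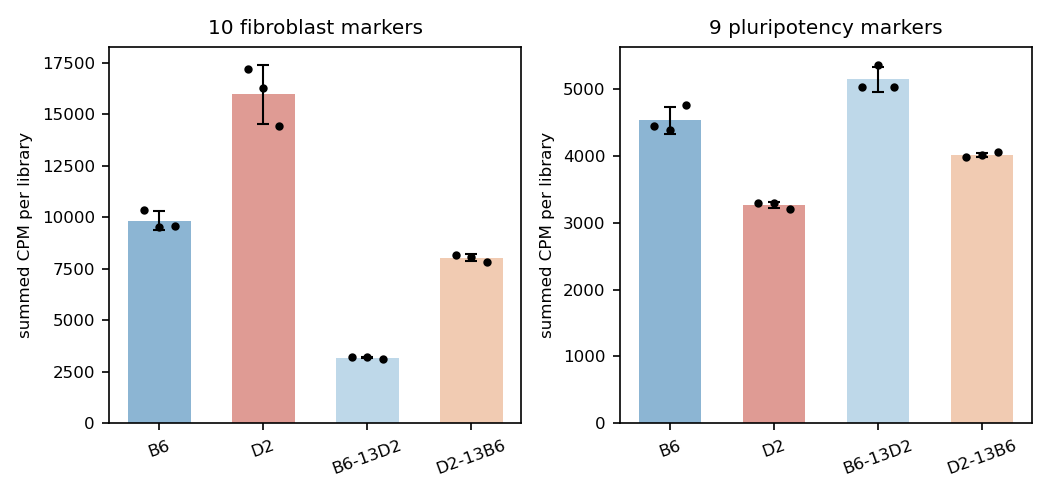
Summed CPM of 10 fibroblast markers (left) and 9 pluripotency markers (right) in each library (points), with group means (bars) and SD (error bars), 3 libraries per group. The fibroblast sum was highest in D2 (14411 to 17220 CPM) and lowest in B6-13D2 (3146 to 3235 CPM), and the pluripotency sum ran the other way between these groups.

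Across the 34 genes a common order of the groups stood out. D2 had the highest mean in 17 genes and B6-13D2 the lowest in 22, and 15 genes (44.1%) had both, against 23.8% of all genes tested. The same order held for 9 of the 10 fibroblast markers; the part of fibroblast RNA in the levels of the 34 genes was not tested. Between the extremes the ratio of mean CPM, D2 over B6-13D2, reached 8.56 for Ifi44, 7.73 for Ifit1, 7.56 for Usp18, 7.21 for Ifih1 and 6.89 for Isg15. At the other end, Adar, Irf3, Eif2ak2 and Ifitm3 differed between their highest and lowest group by 1.16, 1.12, 1.27 and 1.28 times. Summed over the 34 genes, the level was 892 to 943 CPM in B6-13D2, 904 to 951 CPM in B6, 979 to 1007 CPM in D2-13B6 and 1039 to 1082 CPM in D2.

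**Figure D2:**
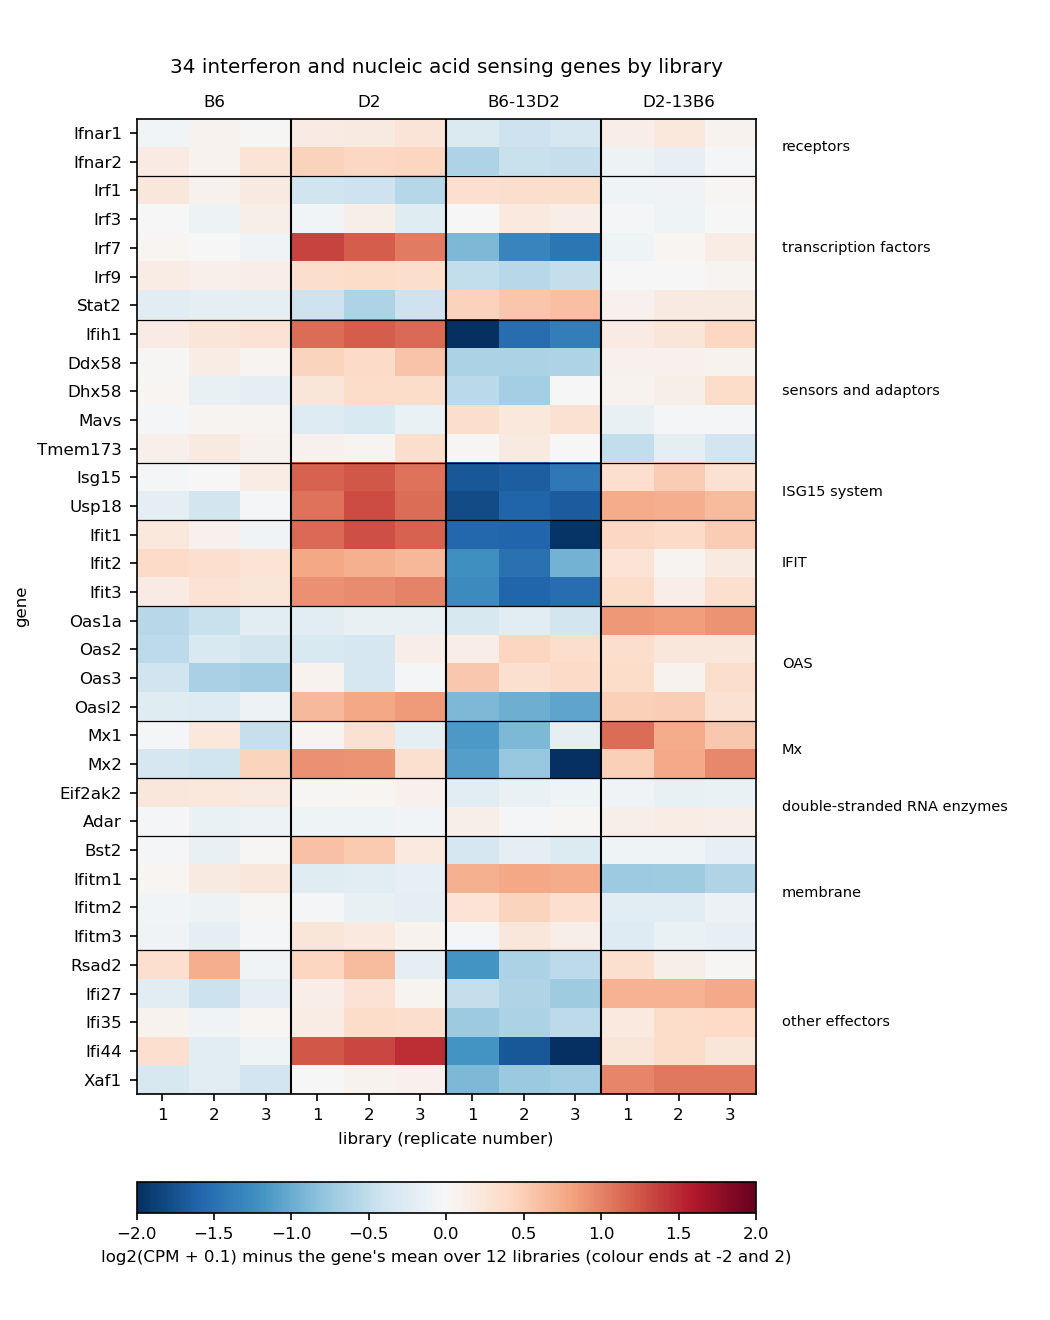
Colour gives log2(CPM + 0.1) minus the gene's mean over 12 libraries for each of the 34 genes (rows, grouped by role) in each library (columns, grouped by line), with colours ending at -2 and 2. Isg15, Usp18, the IFIT genes, Ifih1, Irf7 and Ifi44 are red in all 3 D2 libraries and blue in all 3 B6-13D2 libraries, while Stat2 and Irf1 show the opposite.

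In D2 against B6, 26 of the 34 genes were called (76.5%; all genes tested, 60.0%), 21 higher (background 29.8%) and 5 lower in D2 (background 30.3%). Their median log2 fold change was 0.28, beside 0.01 over all genes tested. In B6-13D2 relative to B6, 29 were called (85.3%; background 58.3%), 9 higher (background 25.4%) and 20 lower in the congenic line (background 32.9%), with a median of -0.42 beside -0.04. In D2-13B6 relative to D2, 26 were called (76.5%; background 57.3%), 9 higher (background 27.6%) and 17 lower (background 29.7%), with a median of -0.18 beside 0 over all genes. Changes of at least 1 on the log2 scale were fewer. They numbered 5 between D2 and B6 (background 11.3%), 11 between B6-13D2 and B6 (background 14.5%) and 3 between D2-13B6 and D2 (background 8.96%). In all 3 comparisons fibroblast markers moved too: of 10, 10 were higher in D2 than in B6 (median log2 fold change 0.85), 10 were lower in B6-13D2 than in B6 (-1.53) and 9 were lower in D2-13B6 than in D2 (-0.94). Without B6 replicate 3, the calls numbered 25 between D2 and B6 and 28 between B6-13D2 and B6.

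The reciprocal lines ask whether an expression difference goes with the segment or with the rest of the genome, and their comparisons share no library. Of the 34 genes, 20 (58.8%) moved in the same direction in both congenic lines relative to the strain of their background, against 32.2% of all genes tested. With changes of at least 1 on the log2 scale in each line there were 2 such genes (5.88%; background 3.76%). The 14 that fell in both lines (background 19.8%) were Isg15, Usp18, Ifit1, Ifit2, Ifit3, Ifih1, Ddx58, Irf7, Irf9, Oasl2, Bst2, Ifi44, Eif2ak2 and Ifnar2. The 6 that rose in both (background 12.4%) were Stat2, Irf1, Mavs, Oas2, Oas3 and Adar. Of 9 pluripotency markers, 6 (66.7%) also rose in both lines and 0 fell in both. Of 10 fibroblast markers, 9 fell in both. The part of either marker list in these counts of the 34 genes was not tested. In 4 genes (11.8%; background 7.33%) the difference followed the origin of the segment instead, a share near the background: Ifitm1 and Ifitm3 were higher with the D2 segment on either background (background 3.02%), and Ifi27 and Xaf1 were lower with it (background 4.31%). These 4 are named after their values were seen. None of the 34 followed the segment with changes of at least 1 in both lines (background 0.554%). The number following it at any size was 4 without B6 replicate 3 and ran from 3 to 4 over the 12 ways of leaving out a library. Ifitm3 was no longer called in B6-13D2 against B6 without B6 replicate 2 (log2 fold change 0.15) or without B6-13D2 replicate 2 (0.13).

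**Figure D3:**
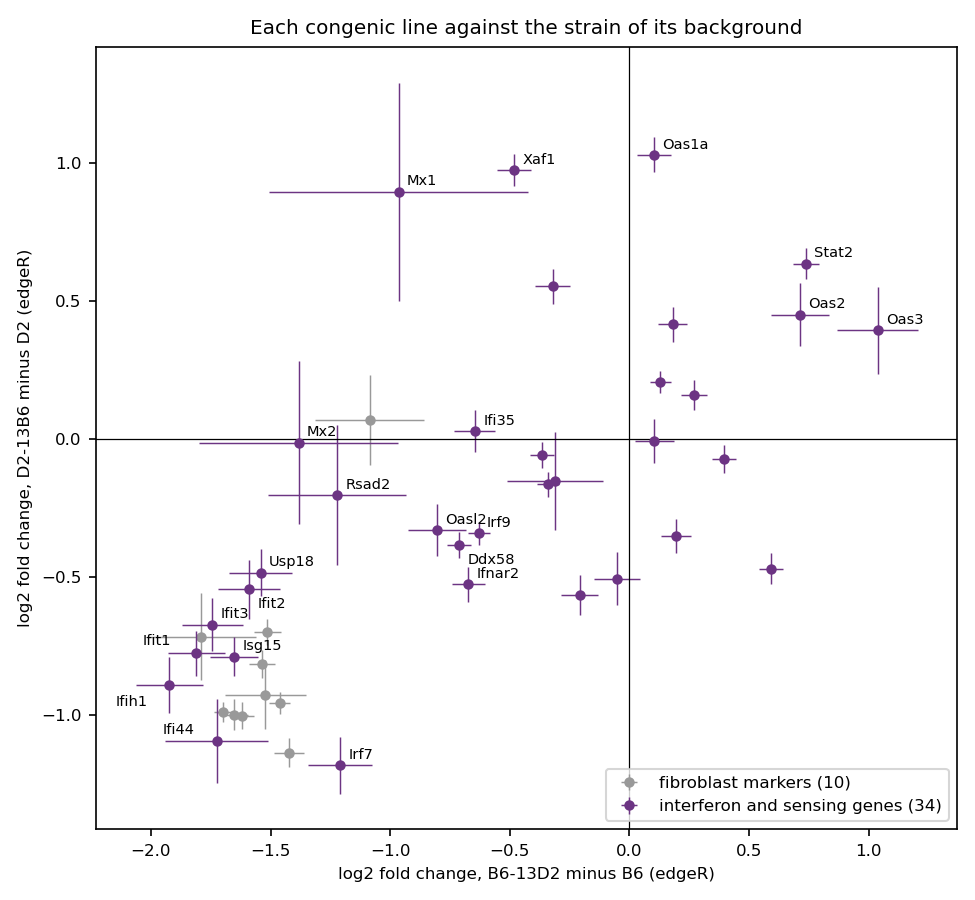
Each point is a gene, with its edgeR log2 fold change in B6-13D2 against B6 on the horizontal axis and in D2-13B6 against D2 on the vertical axis; bars are standard errors, purple marks the 34 genes and grey the 10 fibroblast markers. Isg15, the IFIT genes, Ifih1, Usp18, Ifi44 and Irf7 lie at the lower left, where 9 of the 10 fibroblast markers lie too, and Stat2, Oas2 and Oas3 at the upper right.

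Promoters of these genes were read from RefSeq (GRCm38.p6), as windows of 300 bases from 250 before to 50 after a transcript start, 5′ to 3′ on the strand of the gene. Of the 34 genes, 27 had an entry; Dhx58, Tmem173, Oas2, Mx1, Mx2, Usp18 and Ifi27 had none. The core of the interferon-stimulated response element, searched as GAAA, any 2 bases and GAAA on both strands with overlapping matches kept, was found in 13 of the 27 (48.1%), against 3.99% of 27025 genes in the table. They were Isg15, Ifit1, Ifit3, Ifih1, Ddx58, Stat2, Oas1a, Oas3, Rsad2, Bst2, Ifitm2, Ifitm3 and Eif2ak2. The shorter gamma-activated core, TTC, any 3 bases and GAA, also on both strands, was found in 10 of the 27 (37.0%), against 9.55% of all genes, and its matches overlapped the first motif in 2 windows. The 4 windows below show the element, in capitals, in a pair of genes that fell in both congenic lines (Isg15 and Ifit1) and a pair that rose in both (Oas3 and Stat2). A match is a description of the sequence and not a measured binding site.
Isg15, chr4:156200769-156201068, minus strand: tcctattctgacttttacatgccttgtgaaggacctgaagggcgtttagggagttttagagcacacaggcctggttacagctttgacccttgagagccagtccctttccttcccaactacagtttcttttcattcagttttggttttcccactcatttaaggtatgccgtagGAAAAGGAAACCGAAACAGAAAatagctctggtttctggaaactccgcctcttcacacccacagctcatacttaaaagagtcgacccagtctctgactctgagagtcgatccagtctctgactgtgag
Ifit1, chr19:34640639-34640938, plus strand: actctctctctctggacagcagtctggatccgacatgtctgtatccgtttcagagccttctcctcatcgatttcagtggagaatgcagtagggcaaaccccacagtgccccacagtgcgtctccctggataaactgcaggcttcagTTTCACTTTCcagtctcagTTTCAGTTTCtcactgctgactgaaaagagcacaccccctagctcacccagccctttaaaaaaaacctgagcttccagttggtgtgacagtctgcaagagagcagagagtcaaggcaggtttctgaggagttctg
Oas3, chr5:120777610-120777909, minus strand: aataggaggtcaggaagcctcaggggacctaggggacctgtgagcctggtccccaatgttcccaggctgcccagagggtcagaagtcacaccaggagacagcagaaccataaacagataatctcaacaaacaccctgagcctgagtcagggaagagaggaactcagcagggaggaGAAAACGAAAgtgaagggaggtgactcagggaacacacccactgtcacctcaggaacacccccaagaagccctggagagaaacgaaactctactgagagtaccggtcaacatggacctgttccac
Stat2, chr10:128270248-128270547, plus strand: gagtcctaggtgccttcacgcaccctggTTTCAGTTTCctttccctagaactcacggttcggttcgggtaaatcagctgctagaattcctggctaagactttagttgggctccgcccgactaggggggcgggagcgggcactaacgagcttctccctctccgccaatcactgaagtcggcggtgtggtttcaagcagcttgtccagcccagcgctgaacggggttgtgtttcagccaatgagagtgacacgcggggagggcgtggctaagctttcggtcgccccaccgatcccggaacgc
The Isg15 window holds 3 matches that overlap in a single run, the Ifit1 window holds 2, and the Oas3 and Stat2 windows hold 1 each. Genes with a match moved in opposite directions in the same lines, as the values below show.

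Both chains of the type I interferon receptor were lower in B6-13D2 than in B6. Ifnar2 measured 20.1, 18.9 and 21.7 CPM in B6, 24.8, 23.9 and 24.2 CPM in D2, 11.7, 13.3 and 13.1 CPM in B6-13D2 and 16.8, 16.1 and 17.8 CPM in D2-13B6. The D2 libraries were the highest and the B6-13D2 libraries the lowest, with no overlap between any pair of groups. Its log2 fold change was 0.26 ± 0.065 (SE) in D2 against B6, -0.67 ± 0.070 between B6-13D2 and B6 (edgeR adjusted p = 1.77e-07) and -0.53 ± 0.064 in D2-13B6 against D2 (edgeR adjusted p = 1.35e-06). Ifnar1 averaged 52.0 ± 2.25 CPM (SD, n = 3) in B6, 58.9 ± 1.99 CPM in D2, 40.4 ± 1.83 CPM in B6-13D2 and 56.5 ± 2.65 CPM in D2-13B6. It was lower in B6-13D2 than in B6 by a log2 fold change of -0.36 ± 0.050, but D2-13B6 and D2 overlapped and were not called apart (-0.058 ± 0.047).

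The transcription factors split into opposite patterns. Irf7, the factor that amplifies type I interferon production and is itself interferon-induced, had 7.20, 6.97 and 6.69 CPM in B6, 18.1, 16.4 and 14.5 CPM in D2, 3.70, 2.75 and 2.53 CPM in B6-13D2 and 6.63, 7.25 and 7.76 CPM in D2-13B6. Every D2 library lay above every library of the other groups, every B6-13D2 library lay below them, and B6 and D2-13B6 overlapped. Its level was higher in D2 than in B6 by 1.23 ± 0.11 on the log2 scale (edgeR adjusted p = 2.72e-08). It fell by nearly the same amount in each congenic line, with log2 fold changes of -1.21 ± 0.13 in B6-13D2 and -1.18 ± 0.10 in D2-13B6 (edgeR adjusted p = 4.52e-07 and 2.02e-08). Exons of Irf7 overlap Phrf1 on the opposite strand, and whether counting used the strand is not given in the sources used here. The highest count of Phrf1 in a library was far above the highest of Irf7 (589, in D2 replicate 2), so the level of Irf7 is uncertain.

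Stat2 ran the other way. It measured 32.9, 33.4 and 33.7 CPM in B6, 28.9, 25.1 and 28.7 CPM in D2, 52.7, 56.1 and 58.0 CPM in B6-13D2 and 40.9, 43.3 and 43.3 CPM in D2-13B6, so that both congenic lines lay above both parental strains without overlap. The log2 fold change was 0.74 ± 0.055 in B6-13D2 against B6 (edgeR adjusted p = 2.29e-09) and 0.64 ± 0.056 in D2-13B6 against D2 (edgeR adjusted p = 2.39e-08), and D2 was lower than B6 with a log2 fold change of -0.29 ± 0.059. Irf9, the DNA-binding partner of Stat2, took the pattern of Irf7 at a smaller size, with 36.1, 34.9 and 35.97 CPM in B6, 41.9, 42.4 and 41.7 CPM in D2, 23.3, 22.3 and 23.6 CPM in B6-13D2 and 32.8, 32.7 and 33.95 CPM in D2-13B6. The groups did not overlap. Irf9 fell in B6-13D2 by 0.63 ± 0.045 and in D2-13B6 by 0.34 ± 0.042, and was higher in D2 than in B6 by 0.24 ± 0.043. Stat2 and Irf9, subunits of the same complex, had opposite signs in both congenic lines. Exons of Irf9 overlap Rnf31 on the same strand.

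Irf1, a factor that both interferon classes induce and that also acts at basal level, had 21.9, 19.8 and 21.2 CPM in B6, 14.1, 14.02 and 12.6 CPM in D2, 23.5, 23.8 and 23.9 CPM in B6-13D2 and 17.5, 17.7 and 19.2 CPM in D2-13B6. No groups overlapped, and D2 was the lowest. It was lower in D2 than in B6 (-0.62 ± 0.065, edgeR adjusted p = 2.23e-07) and higher in D2-13B6 than in D2 (0.41 ± 0.063). The rise in B6-13D2 against B6 was small (0.18 ± 0.060) and was no longer called without B6 replicate 2 (0.14). Irf1 lies on chromosome 11, where the median gene was higher in D2-13B6 than in D2 by 0.39 on the log2 scale outside 66 to 74 Mb and by 0.42 within it, beside -0.03 on the other autosomes. The part of this shift in the value of Irf1 was not tested. Irf3, the constitutive factor that the sensors activate, averaged 26.5 ± 2.09 CPM in B6, 25.5 ± 3.197 CPM in D2, 28.5 ± 2.00 CPM in B6-13D2 and 25.6 ± 0.680 CPM in D2-13B6 (SD, n = 3), overlapped in these comparisons and was called in none of the 3. Exons of Irf3 overlap Bcl2l12 on the opposite strand, so its level is uncertain; partners of Irf1, Dhx58 and Adar on the opposite strand had at most 16, 6 and 44 counts in a library.

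Of the RNA sensors, Ifih1 had among the widest ranges in the list. Its levels were 5.93, 6.30 and 6.52 CPM in B6, 11.6, 12.4 and 11.7 CPM in D2, 1.21, 1.78 and 1.96 CPM in B6-13D2 and 5.95, 6.28 and 7.08 CPM in D2-13B6. D2 was highest and B6-13D2 lowest in every library, and B6 and D2-13B6 overlapped. The log2 fold change was 0.93 ± 0.11 in D2 against B6, -1.92 ± 0.14 between B6-13D2 and B6 (edgeR adjusted p = 1.91e-09) and -0.89 ± 0.10 in D2-13B6 against D2 (edgeR adjusted p = 7.26e-07). Ddx58 was more abundant and followed the same order at a smaller size, with 58.0, 63.3 and 59.4 CPM in B6, 77.6, 74.5 and 84.9 CPM in D2, 36.7, 36.6 and 37.1 CPM in B6-13D2 and 60.6, 60.5 and 59.7 CPM in D2-13B6. It fell by 0.71 ± 0.050 in B6-13D2 and by 0.39 ± 0.046 in D2-13B6. Per kilobase of exon, Ddx58 stood at 8.54 CPM in B6 and Ifih1 at 0.765 CPM, and the third member of this helicase family, Dhx58 (LGP2), at 0.586 CPM. Dhx58 averaged 1.55 CPM in B6-13D2 to 2.61 CPM in D2 and was called in none of these 3 comparisons as fitted here. It also lies on chromosome 11, and its log2 fold change in D2-13B6 against D2 was -0.15 ± 0.18 beside the chromosome's median of 0.39, whose part in it was not tested. Its difference between D2 and B6 (0.45) was called with RLE size factors (0.50), with a filter at an average CPM of 1 (0.50) and without B6-13D2 replicate 2 or 3 (0.45 in both), and its difference between B6-13D2 and B6 (-0.31) without B6-13D2 replicate 3 (-0.54).

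The adaptors did not share the pattern of the sensors. Tmem173 measured 10.4, 10.95 and 10.2 CPM in B6, 10.2, 10.01 and 12.3 CPM in D2, 9.83, 10.97 and 9.66 CPM in B6-13D2 and 6.85, 8.47 and 7.42 CPM in D2-13B6. B6, D2 and B6-13D2 overlapped, and the D2-13B6 libraries lay below all of them. Against D2 the log2 fold change in D2-13B6 was -0.51 ± 0.096 (edgeR adjusted p = 2.10e-04), and neither of the other comparisons was called (0.034 ± 0.097 in D2 against B6, -0.052 ± 0.097 between B6-13D2 and B6). Mavs averaged 37.8 ± 1.39 CPM in B6, 31.8 ± 1.94 CPM in D2, 45.7 ± 2.40 CPM in B6-13D2 and 35.3 ± 1.54 CPM in D2-13B6 (SD, n = 3). It was higher in B6-13D2 than in B6 (0.27 ± 0.055) and lower in D2 than in B6 (-0.26 ± 0.057). In D2-13B6 against D2 it was higher by 0.16 ± 0.056, although the groups overlapped, and the call was lost without D2 replicate 2 (0.11), without D2-13B6 replicate 2 (0.14) and without D2-13B6 replicate 3 (0.14), and with a filter at an average CPM of 1 (0.12).

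Isg15, a ubiquitin-like modifier that interferon induces strongly, and Usp18, the protease that removes it and also restrains receptor signalling, moved together. Isg15 had 10.4, 10.5 and 11.7 CPM in B6, 24.1, 25.1 and 22.6 CPM in D2, 3.22, 3.32 and 3.89 CPM in B6-13D2 and 13.4, 15.1 and 13.2 CPM in D2-13B6. Usp18 had 5.36, 4.70 and 5.96 CPM in B6, 13.0, 15.2 and 13.3 CPM in D2, 1.70, 1.95 and 1.85 CPM in B6-13D2 and 10.3, 10.1 and 9.46 CPM in D2-13B6. In neither gene did any groups overlap, and the order was D2, D2-13B6, B6 and B6-13D2 in both. Isg15 was higher in D2 than in B6 by 1.14 ± 0.078 on the log2 scale, fell by 1.65 ± 0.10 in B6-13D2 (edgeR adjusted p = 1.48e-10) and fell by 0.79 ± 0.072 in D2-13B6 (edgeR adjusted p = 3.71e-08). For Usp18 the same differences were 1.38 ± 0.098, -1.54 ± 0.13 and -0.49 ± 0.086. Both genes stayed higher in D2-13B6 than in B6, by 0.35 ± 0.080 and 0.90 ± 0.099.

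The IFIT genes, whose products bind viral RNA and block its translation, fell in both congenic lines. Ifit1 measured 8.48, 7.76 and 6.99 CPM in B6, 16.2, 18.0 and 16.7 CPM in D2, 2.39, 2.38 and 1.81 CPM in B6-13D2 and 9.84, 9.55 and 10.4 CPM in D2-13B6. Ifit2 measured 6.59, 6.38 and 6.09 CPM in B6, 8.62, 8.23 and 7.97 CPM in D2, 2.08, 1.71 and 2.57 CPM in B6-13D2 and 6.09, 5.23 and 5.68 CPM in D2-13B6. Ifit3 measured 5.32, 5.83 and 5.62 CPM in B6, 9.00, 9.23 and 9.56 CPM in D2, 1.90, 1.51 and 1.59 CPM in B6-13D2 and 6.17, 5.23 and 6.02 CPM in D2-13B6. For each of the 3 genes all D2 libraries were above all others and all B6-13D2 libraries below, and B6 and D2-13B6 overlapped for Ifit3 and met at 6.09 CPM for Ifit2. The log2 fold changes in B6-13D2 against B6 were -1.81 ± 0.12, -1.59 ± 0.13 and -1.74 ± 0.13 for Ifit1, Ifit2 and Ifit3, with edgeR adjusted p from 3.96e-10 to 8.60e-09. In D2-13B6 against D2 they were -0.78 ± 0.082, -0.55 ± 0.11 and -0.67 ± 0.095. In D2 against B6 they were 1.14 ± 0.089, 0.38 ± 0.11 and 0.73 ± 0.10. Counts of Ifit1 and Ifit3 were not whole, which means that the authors' software had divided reads between genes, so both are uncertain; counts of Ifit2 were whole.

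**Figure D4:**
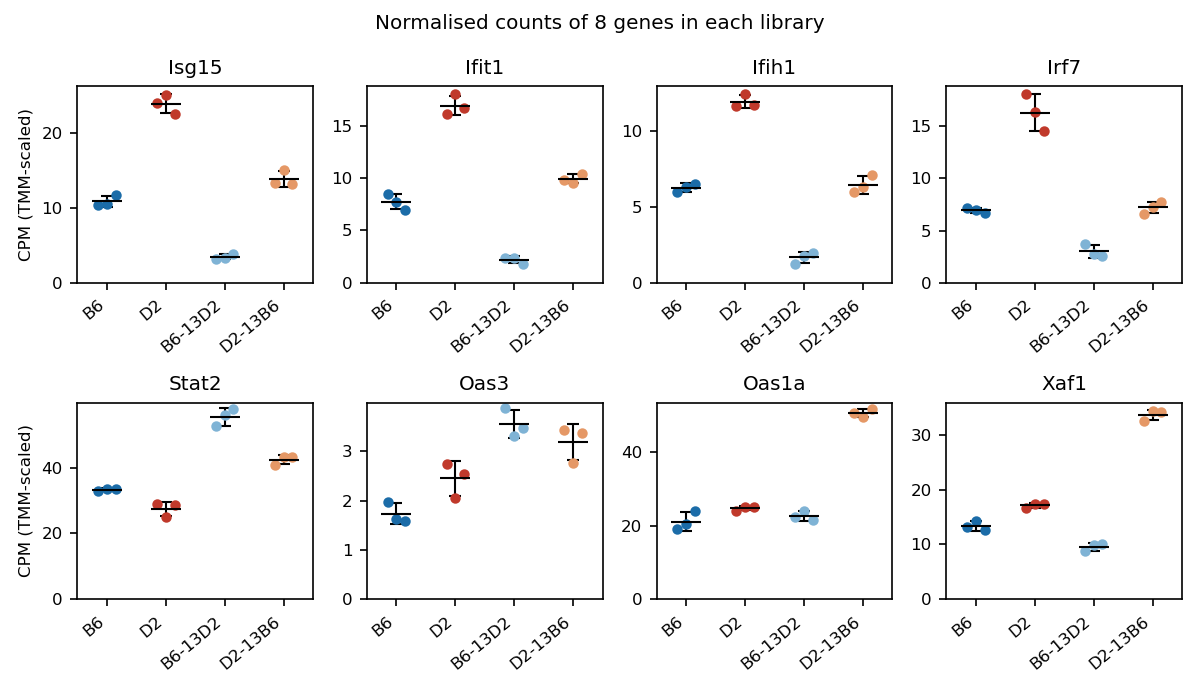
CPM of 8 genes in each library (points, coloured by group), with group means (long bars) and SD (error bars), n = 3 per group and each axis starting at 0. Isg15, Ifit1, Ifih1 and Irf7 are highest in D2 and lowest in B6-13D2, Stat2 and Oas3 are higher in both congenic lines, and Oas1a and Xaf1 are high in D2-13B6 alone.

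The oligoadenylate synthetases, which make the messenger that activates RNase L upon sensing double-stranded RNA, did not move as a family. Oas1a, Oas2 and Oas3 lie in the same cluster on chromosome 5 and Oasl2 in another part of that chromosome. Oas1a had 18.9, 20.3 and 24.0 CPM in B6, 24.1, 25.1 and 25.2 CPM in D2, 22.3, 24.0 and 21.5 CPM in B6-13D2 and 50.7, 49.4 and 51.8 CPM in D2-13B6. The D2-13B6 libraries stood far above the others, by a log2 fold change of 1.03 ± 0.063 against D2 (edgeR adjusted p = 2.23e-10), and B6 and B6-13D2 overlapped. Oas1a was higher in D2 than in B6 by 0.23 ± 0.071, a call lost without B6 replicate 1 (0.16). In B6-13D2 against B6 it was not called (0.10 ± 0.072), except without B6 replicate 3 (0.21). Counts of Oas1a were not whole either, so its level is uncertain. Of 6 leukocyte markers 5 were also highest in D2-13B6, and their part in its level was not tested.

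Oas3 had low levels, 1.98, 1.64 and 1.59 CPM in B6, 2.75, 2.06 and 2.55 CPM in D2, 3.88, 3.32 and 3.47 CPM in B6-13D2 and 3.43, 2.77 and 3.37 CPM in D2-13B6. Both congenic lines lay above the strain of their background, by 1.04 ± 0.17 for B6-13D2 (edgeR adjusted p = 3.96e-05) and 0.39 ± 0.16 for D2-13B6 (edgeR adjusted p = 0.0401). The second of these calls was lost without D2 replicate 2 (0.26), D2 replicate 3 (0.42), B6-13D2 replicate 3 (0.39), D2-13B6 replicate 1 (0.33) or D2-13B6 replicate 3 (0.35), and with DESeq2 (0.39), without a filter (0.41) or with a filter at an average CPM of 1 (0.35). Its higher level in D2 than in B6 (0.48 ± 0.18) was lost without B6 replicate 2 (0.44) or 3 (0.42), or without D2 replicate 1 (0.39) or 3 (0.45). Oas2 averaged 5.63 ± 0.443 CPM in B6, 6.66 ± 1.29 CPM in D2, 9.24 ± 0.937 CPM in B6-13D2 and 8.98 ± 0.464 CPM in D2-13B6 (SD, n = 3), and rose in both congenic lines (0.71 ± 0.12 and 0.45 ± 0.12). Oasl2 took the opposite direction, with means of 4.06 ± 0.233 CPM in B6, 7.97 ± 0.573 CPM in D2, 2.32 ± 0.134 CPM in B6-13D2 and 6.32 ± 0.434 CPM in D2-13B6. It fell by 0.80 ± 0.12 in B6-13D2 and by 0.33 ± 0.094 in D2-13B6.

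The Mx genes, known as interferon-induced antiviral GTPases, were close to the limit of detection, and the GENCODE annotation marks Mx2 as a polymorphic pseudogene. Mx1 averaged between 0.132 CPM in B6-13D2 and 0.560 CPM in D2-13B6, from 2 to 26 counts per library, and with all libraries was called in none of the comparisons of D2 with B6 or of a congenic line with its background strain. Without B6-13D2 replicate 3 it was called lower in B6-13D2 than in B6 (-1.54). Mx2 had 0.659, 0.630 and 1.20 CPM in B6, 1.71, 1.70 and 1.09 CPM in D2, 0.346, 0.470 and 0.113 CPM in B6-13D2 and 1.23, 1.52 and 1.77 CPM in D2-13B6, from 3 to 61 counts per library. The B6-13D2 libraries were the lowest, with a log2 fold change of -1.38 ± 0.42 against B6 (edgeR adjusted p = 0.00829), a call lost without B6 replicate 3 (-1.02). Mx2 was higher in D2 than in B6 by 0.87 ± 0.33 although the groups overlapped. That call was lost without B6 replicate 1 (0.73) or 2 (0.70), or without D2 replicate 1 (0.78) or 2 (0.76). D2-13B6 and D2 did not differ by more than their spread (-0.014 ± 0.29).

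Among the other effectors, Ifi44 had the widest range of all 34 genes, with 3.60, 2.39 and 2.66 CPM in B6, 6.83, 7.29 and 8.01 CPM in D2, 1.18, 0.805 and 0.604 CPM in B6-13D2 and 3.344, 3.65 and 3.33 CPM in D2-13B6. D2 was highest and B6-13D2 lowest without overlap, and B6 and D2-13B6 overlapped. Ifi44 was higher in D2 than in B6 by 1.35 ± 0.16, and fell by 1.73 ± 0.22 in B6-13D2 and by 1.09 ± 0.15 in D2-13B6 (edgeR adjusted p = 2.03e-06 and 7.59e-06). Rsad2 (viperin), an antiviral enzyme of the endoplasmic reticulum, had 1.80, 2.39 and 1.33 CPM in B6, 1.92, 2.22 and 1.23 CPM in D2, 0.554, 0.872 and 0.944 CPM in B6-13D2 and 1.78, 1.52 and 1.43 CPM in D2-13B6. Here B6, D2 and D2-13B6 overlapped and B6-13D2 lay below them all, with a log2 fold change of -1.22 ± 0.29 against B6 (edgeR adjusted p = 0.00140). The log2 fold change was -0.016 ± 0.26 between D2 and B6 and -0.20 ± 0.25 in D2-13B6 against D2, neither called.

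Xaf1, a pro-apoptotic factor, and Ifi27, a small protein of mitochondrial and nuclear membranes, were highest in D2-13B6 instead, as were 5 of the 6 leukocyte markers, whose part in these levels was not tested. Xaf1 averaged 13.3 ± 0.839 CPM in B6, 17.1 ± 0.483 CPM in D2, 9.56 ± 0.702 CPM in B6-13D2 and 33.6 ± 0.957 CPM in D2-13B6 (SD, n = 3). Its log2 fold change was -0.48 ± 0.072 in B6-13D2 against B6 and 0.98 ± 0.059 between D2-13B6 and D2. Xaf1 lies on chromosome 11 (72301629 to 72313733, GRCm38), within the 66 to 74 Mb block, and its rise in D2-13B6 was larger than the block's median of 0.42; the part of that shift was not tested. Ifi27, on chromosome 12, averaged 35.1 ± 3.19 CPM in B6, 47.4 ± 3.85 CPM in D2, 28.1 ± 2.29 CPM in B6-13D2 and 69.9 ± 1.60 CPM in D2-13B6. Its log2 fold change was -0.32 ± 0.074 in the B6-13D2 line and 0.55 ± 0.064 in the D2-13B6 line. Ifi35, also on chromosome 11, fell in B6-13D2 (-0.65 ± 0.086) and was not called in D2-13B6 against D2 (0.028 ± 0.075), where the part of the chromosome's shift was again not tested. Its counts were not whole in every library, and its exons overlap Gm11626 on the opposite strand.

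The enzymes that act on double-stranded RNA inside the cell varied little. PKR (Eif2ak2), a kinase that stops translation, averaged 47.7 ± 0.827 CPM in B6, 42.9 ± 0.956 CPM in D2, 37.7 ± 1.73 CPM in B6-13D2 and 38.2 ± 1.11 CPM in D2-13B6 (SD, n = 3). It fell in B6-13D2 by 0.34 ± 0.045 and in D2-13B6 by 0.17 ± 0.044. Its lower level in D2 than in B6 (-0.15 ± 0.045) was not called with RLE size factors or DESeq2 (-0.098 in both) or with a filter at an average CPM of 1 (-0.10). Its counts were not whole, and its exons overlap Gm26637 on the opposite strand. Adar, the deaminase that edits adenosine to inosine and keeps the cell's own RNA from being sensed, averaged 71.3 ± 2.53 CPM in B6, 72.0 ± 1.16 CPM in D2, 78.0 ± 4.21 CPM in B6-13D2 and 82.9 ± 0.893 CPM in D2-13B6. It rose in D2-13B6 by 0.21 ± 0.041 and in B6-13D2 by 0.13 ± 0.042, the latter not called without B6 replicate 2 (0.11) or without B6-13D2 replicate 1 (0.089).

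Membrane genes were the most abundant of the list in B6. Per kilobase of exon, Ifitm2 and Ifitm3 stood at 188 and 188 CPM in B6, Bst2 (tetherin) at 79.7 CPM and Ifitm1 at 32.1 CPM, beside 14.4 CPM for Isg15 and 0.0679 CPM for Mx1. The IFITM proteins block fusion of viruses with cell membranes and are known to be expressed in stem cells without interferon. All 3 were higher in B6-13D2 than in B6, with log2 fold changes of 0.59 ± 0.051, 0.40 ± 0.051 and 0.19 ± 0.062 for Ifitm1, Ifitm2 and Ifitm3. Ifitm1 averaged 35.1 ± 2.33 CPM in B6, 27.4 ± 0.693 CPM in D2, 53.0 ± 1.30 CPM in B6-13D2 and 19.8 ± 0.923 CPM in D2-13B6 (SD, n = 3), no groups overlapping, with counts that were not whole in every library. In D2-13B6 against D2, Ifitm1 and Ifitm3 fell, with log2 fold changes of -0.47 ± 0.056 and -0.35 ± 0.061, and Ifitm2 was not called (-0.073 ± 0.051). Bst2, which holds budding viruses at the cell surface, averaged 71.9 ± 4.36 CPM in B6, 102 ± 14.4 CPM in D2, 62.3 ± 2.87 CPM in B6-13D2 and 69.2 ± 2.18 CPM in D2-13B6. It fell in D2-13B6 by 0.57 ± 0.073. Its small fall in B6-13D2 (-0.21 ± 0.077) was lost without B6 replicate 1 (-0.20) or 3 (-0.17), without B6-13D2 replicate 1 (-0.17) or 3 (-0.20), and with RLE size factors or DESeq2 (-0.14 in both) or the CPM filter (-0.17).

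Each congenic line was also compared with the strain from which its segment came. B6-13D2 against D2 showed the widest separation: 30 of the 34 genes were called (88.2%; background 74.6%), 8 higher (background 36.7%) and 22 lower (background 38.0%), with a median log2 fold change of -0.80, and 14 changed by at least 1 on that scale (background 28.1%). The largest was Ifi44 at -3.08 ± 0.19, followed by Ifit1 at -2.95 ± 0.11 and Usp18 at -2.92 ± 0.11. In D2-13B6 against B6, 22 were called (64.7%; background 59.0%), 15 higher (background 24.5%) and 7 lower (background 34.6%), with a median of 0.09 beside -0.06 over all genes tested. DESeq2 called 4 lower in place of 7. Here 3 differed by at least 1 (background 11.6%). Ifit2, Ifit3, Ifih1, Ddx58, Irf7 and Ifi44, which differed between D2 and B6, were not called between D2-13B6 and B6 with all libraries, with log2 fold changes from -0.16 to 0.26; Ifi44 was called without B6 replicate 1 (0.44). Of the 10 fibroblast markers, 10 were lower in B6-13D2 than in D2 (median -2.31), and between D2-13B6 and B6 4 were higher and 5 lower (median -0.09); their part in these values of the 34 genes was not tested.

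Groups whose libraries did not overlap were counted as well. The number of genes without overlap was 26 between D2 and B6 (background 62.0%), 28 between B6-13D2 and B6 (63.2%), 26 between D2-13B6 and D2 (62.9%), 31 between B6-13D2 and D2 (75.5%) and 24 between D2-13B6 and B6 (65.2%).

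Labels of the segments differ at both ends between the congenic lines, and the segments were taken here as the same interval. The effect of the D2 segment on the B6 background was compared with its effect on the D2 background on that basis. It differed for 29 of the 34 genes (85.3%; background 64.5%), 10 with a more positive effect on the B6 background and 19 with a more negative one (background 31.1% and 33.4%), with a median difference of -0.53, and by at least 1 for 17 of them (background 25.6%). Ifi44 and Ifih1 had the largest differences, -2.82 ± 0.26 and -2.82 ± 0.17. This contrast equals the congenic lines minus the parental strains, so it also contains anything that all congenic libraries share.

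A further 75 genes of the pathway were listed, and 69 of them were tested. Between D2 and B6, 50 passed the test (72.5%; background 60.0%), 40 being higher and 10 lower in D2 (background 29.8% and 30.3%), with a median log2 fold change of 0.35. Between B6-13D2 and B6, 48 passed (69.6%; background 58.3%), 10 being higher and 38 lower in the congenic line (background 25.4% and 32.9%; median -0.42). Between D2-13B6 and D2, 50 passed (72.5%; background 57.3%), 16 being higher and 34 lower in the congenic line (background 27.6% and 29.7%; median -0.14). Of the 69, 36 (52.2%; background 32.2%) changed in the same direction in both lines, 5 up and 31 down (background 12.4% and 19.8%). There were 32 (46.4%) with the highest mean in D2 and the lowest in B6-13D2, against 23.8% of all genes tested. The fibroblast markers, whose changes in the same comparisons are given above, had that order in 9 of 10, and their part in these counts was not tested. The 3 interferon genes looked up were at or near 0. Ifnb1 had 1 count in each of 2 B6 libraries and 0 in the other 10 libraries, Ifna4 had 0 in all 12, and Ifng had at most 3 counts; a count of 0 allows up to 0.137 CPM in the shallowest library. Tlr9, Ifit1bl1 and Ifi44l were also too low to be tested.

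Among other pathway genes with a highest mean of at least 5 CPM, 7 of the 8 with the largest changes were highest in D2 and lowest in B6-13D2. The 8 were picked by the size of their changes between these same groups, so this count describes the pick only. Of 10 fibroblast markers, 9 had that order, and their part in these values was not tested. Irgm1, a GTPase that interferon gamma induces, averaged 41.6 ± 1.65 CPM in B6, 66.8 ± 1.79 CPM in D2, 10.4 ± 0.542 CPM in B6-13D2 and 52.8 ± 1.45 CPM in D2-13B6 (SD, n = 3), with a log2 fold change of -2.004 ± 0.055 in B6-13D2 against B6. In that comparison Trim30a had -1.76 ± 0.17, Ifi204 -1.55 ± 0.16, Helz2 -1.49 ± 0.069, Lgals3bp -1.44 ± 0.052, Nlrc5 -1.38 ± 0.16 and Gbp2 -1.28 ± 0.22. All of these 7 were called higher in D2 than in B6 and lower in D2-13B6 than in D2. In the last comparison the calls of Trim30a (-0.27) and Nlrc5 (-0.34) were lost without D2 replicate 1 (-0.22 and -0.31) and without D2-13B6 replicate 1 (-0.16 and -0.29), and that of Trim30a also without D2 replicate 2 (-0.28). Both calls were also lost with DESeq2 (-0.27 and -0.34) and without a filter (-0.26 and -0.32).

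Aim2, a sensor of cytosolic DNA that builds an inflammasome, was the exception. It measured 44.1, 49.0 and 49.7 CPM in B6, 3.33, 2.75 and 3.96 CPM in D2, 43.3, 44.9 and 41.1 CPM in B6-13D2 and 6.85, 7.03 and 7.01 CPM in D2-13B6. The level went with the background strain: both groups on the B6 background lay between 41.1 and 49.7 CPM and both on the D2 background between 2.75 and 7.03 CPM. The log2 fold change was -3.87 ± 0.089 in D2 against B6 (edgeR adjusted p = 5.04e-16) and 1.09 ± 0.11 in D2-13B6 against D2. In B6-13D2 against B6 it was -0.14 ± 0.062 and not called with all libraries, but called without B6 replicate 1 (-0.19), B6-13D2 replicate 2 (-0.17), D2 replicate 2 (-0.14) or D2 replicate 3 (-0.14).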

How the data were processed

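By the titles and protocol, RNA was sequenced from mouse embryonic stem cells of 4 groups, 3 libraries each, as paired reads of 150 bases. The authors deposited expected counts per Ensembl gene ID and library, which by the title of the table come from EMASE, a method that divides reads mapping to several genes or alleles among them. The submitters' processing notes name Bowtie 1.0.0, edgeR 3.34.1 and the build mm10 without their roles; the annotation release and the strand setting are not given in the sources used here. Symbols, positions and exon lengths came from GENCODE M21 (42462 of 43346 IDs matched; the other 884 held 0.361% of the reads). Counts of 6 of the 34 genes were not whole to within 1e-06 in every library.

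The rounded expected counts went into edgeR 4.0.16 (under R 4.3.3), with genes kept by filterByExpr at a minimum count of 10, TMM scaling, a quasi-likelihood fit of 4 group means over all 12 libraries and Benjamini-Hochberg adjustment at 0.05. The standard error is the absolute log2 fold change over the square root of F. The fit was tested on simulated counts. Replicates differed by more than sampling noise (chi-square per degree of freedom 1.96 to 8.09). Values in every library are given for genes called with a log2 fold change of 1 or more in size in D2 against B6 or a congenic line against its background strain and a highest mean of at least 1 CPM, and for receptors, factors and sensors with at least 0.5. Of the other pathway genes, those called with at least 1 in the same comparisons and a highest mean of at least 5 CPM are named, at most 8. Alternatives were a replicate block, leaving out each library, DESeq2 1.42.0, RLE size factors, an average CPM of 1 or more as the filter, no filter, and calls restricted to log2 fold changes of 1 or more in size. The members and lists were chosen with earlier results of these data known.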

Additional observations from a re-analysis of the deposited data

Results flagged for a closer look

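For the genes named with values in every library, the effect of the D2 segment differed between the B6 and D2 backgrounds by the test of that difference in edgeR (29 of all 34 genes). The difference is the log2 effect on the B6 background minus that on the D2 background, so that negative values mean a lower level in the congenic lines than in the parental strains together. It was -2.82 for Ifi44, -2.82 for Ifih1, -2.59 for Ifit1, -2.44 for Isg15, -2.42 for Ifit3, -2.39 for Irf7, -2.14 for Ifit2 and -2.03 for Usp18. Smaller negative values were -1.43 for Rsad2, -1.40 for Mx2, -1.20 for Ifnar2, -1.10 for Ddx58, -0.97 for Irf9 and -0.56 for Tmem173. Positive values were 1.43 for Oas3, 1.37 for Stat2, 1.13 for Oas1a and 0.59 for Irf1. On chromosome 11, which holds Irf1, the median in this contrast was 0.41 outside 66 to 74 Mb, beside -0.03 on the other autosomes. The part of this shift in the value of Irf1 was not tested. The call of Mx2 was lost without B6 replicate 3 (-1.03), D2 replicate 1 (-1.28), D2 replicate 2 (-1.29), B6-13D2 replicate 3 (-1.03) or D2-13B6 replicate 1 (-1.27). By its construction the difference equals the congenic lines minus the parental strains, and an interaction cannot be told apart from anything else that the congenic libraries share. Unequal segments, whose labels differ at both ends, cannot be told apart from it either. All 10 fibroblast markers had negative values in the same contrast (median -2.48). Of 9 pluripotency markers, 8 had positive values and 1 a negative value (median 0.37). The part of either marker list in these differences was not tested.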

How the results depend on the processing

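The number of the 34 genes called kept within 1.5 times of the reported value under DESeq2, RLE size factors, the replicate block, no filter and a filter at an average CPM of 1 (which left 33 of them), with 1 exception: DESeq2 called 4 genes lower in D2-13B6 than in B6 where edgeR called 7. RLE size factors moved the median of all genes by at most 0.065 on the log2 scale. With them the share of all called genes that were higher went from 43.53% to 51.97% in B6-13D2 against B6. It went from 49.61% to 56.74% in D2 against B6 and from 41.45% to 49.26% in D2-13B6 against B6, and moved less in the other comparisons. The backgrounds given for higher and for lower genes therefore depend on the scaling. Leaving out each library gave 24 to 27 calls between D2 and B6, 26 to 30 between B6-13D2 and B6, 24 to 26 between D2-13B6 and D2, 29 to 31 between B6-13D2 and D2, 17 to 22 between D2-13B6 and B6, 27 to 29 for the difference of the segment effect, and 18 to 20 that changed in the same direction in both lines. Same-numbered libraries did not deviate together (18 pairs, r from -0.149 to 0.087, mean -0.0088), so the numbers do not pair them; with the replicate block, 26, 29, 26, 29, 20 and 28 of the genes were called in these 6 comparisons in the same order.

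Requiring a log2 fold change of 1 or more in size lowered every count by construction. For the 34 genes it left 5 (5 higher, 0 lower) between D2 and B6, 11 (1, 10) between B6-13D2 and B6, 3 (1, 2) between D2-13B6 and D2, 14 (1, 13) between B6-13D2 and D2, 3 (3, 0) between D2-13B6 and B6 and 17 (4, 13) for the difference of the segment effect; 0 followed the segment and 2 changed in the same direction in both lines. For the other 69 pathway genes tested it left 8 (7, 1), 15 (0, 15), 5 (3, 2), 32 (2, 30), 5 (4, 1) and 27 (3, 24), which is 11.6%, 21.7%, 7.25%, 46.4%, 7.25% and 39.1%, beside 11.3%, 14.5%, 8.96%, 28.1%, 11.6% and 25.6% of all genes tested.

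Signs changed for differences near 0 that were called in no setting. Tmem173 in B6-13D2 against B6 became 0.011 with RLE size factors or DESeq2. Irf3 in D2 against B6 became 0.0033 under DESeq2, 0.0086 under RLE size factors and 0.0061 under the CPM filter, and Irf3 in D2-13B6 against D2 became 0.011 without a filter. Rsad2 in D2 against B6 became 0.038, 0.032 and 0.039 with RLE size factors, DESeq2 and the CPM filter. Mx2 in D2-13B6 against D2 became 0.0051 without a filter, and Ifi35 in that comparison became -0.010 with the CPM filter. Leaving out a library, the log2 fold change in D2-13B6 against B6 ran from -0.034 to 0.092 for Ifih1, -0.030 to 0.035 for Ddx58, -0.0046 to 0.11 for Irf7 and -0.41 to 0.013 for Rsad2. In D2 against B6 it ran from -0.058 to 0.096 for Tmem173, -0.15 to 0.038 for Irf3, -0.22 to 0.22 for Rsad2 and -0.011 to 0.038 for Adar. It ran from -0.15 to 0.0079 for Tmem173 in B6-13D2 against D2, and in D2-13B6 against D2 from -0.094 to 0.094 for Irf3, -0.18 to 0.12 for Mx2 and -0.022 to 0.090 for Ifi35. The cause was not tested. The call of Irf9 in D2-13B6 against B6 (-0.11) was lost under DESeq2, RLE size factors, no filter, the CPM filter and the replicate block, and without B6 replicate 1 or 3, D2 replicate 1 or D2-13B6 replicate 1 or 2; that of Irf1 (-0.21) was lost with DESeq2 (-0.15). Levels under about 3 CPM, as of Mx1, Mx2, Oas3 and Rsad2, rest on few counts.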
